A study of Mus musculus with 2 samples.

Results

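The interstitial matrix and elastic fibre genes are 44 genes that code for the proteins fibroblasts and contractile stromal cells lay down between the cells of the lung, and for the enzymes that crosslink them. They were chosen by gene symbol and not by a rule on measured values, but with earlier results of these data known. All 44 were found among the 32285 genes of the count matrices. Each had at least 1 unique molecular identifier (UMI, 1 captured RNA molecule) in both libraries. They fall into 7 classes: 6 fibrillar collagen genes (*Col1a1*, *Col1a2*, *Col3a1*, *Col5a1*, *Col5a2*, *Col5a3*), 9 other collagen genes (*Col6a1*, *Col6a2*, *Col6a3*, *Col8a1*, *Col12a1*, *Col13a1*, *Col14a1*, *Col15a1*, *Col16a1*), 11 elastic fibre and microfibril genes (*Eln*, *Fbn1*, *Fbln1*, *Fbln2*, *Fbln5*, *Efemp1*, *Efemp2*, *Mfap2*, *Mfap4*, *Mfap5*, *Emilin1*), 4 latent TGF-beta binding proteins (*Ltbp1* to *Ltbp4*), 3 crosslinking enzymes (*Lox*, *Loxl1*, *Loxl2*), 5 small leucine-rich proteoglycans (*Dcn*, *Lum*, *Bgn*, *Fmod*, *Ogn*) and 6 glycoproteins and matricellular proteins (*Fn1*, *Tnc*, *Tnxb*, *Postn*, *Sparc*, *Mgp*).

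The libraries are single-cell RNA libraries (10x 3′ chemistry) of mouse lung, labelled Cebpa FF and Cebpa KO. Both carry floxed *Cebpa* alleles on a mixed genetic background, and the KO mice also carry a tamoxifen-inducible Cre driven by the promoter of *Sftpc*, a surfactant gene of alveolar type 2 (AT2) cells, so the stromal cells described here are not the cells in which Cre was to act. *Cebpa* deletion was induced with 5 daily injections of tamoxifen at 75 mg/kg in mice that were 3 months old by default, the lungs were taken 26 weeks after the first injection, and a later round of weekly injections was part of the protocol for analyses this late. Cells of 3 mice per genotype went into 1 library per genotype, so cells cannot be traced back to single animals. There are thus no replicates: no difference between the libraries was tested, and every interval below covers counting error only.

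Fibrillar collagens form the tensile fibres of the interstitium, while elastin deposited on a scaffold of fibrillin microfibrils lets the lung recoil. Lysyl oxidases crosslink both kinds of fibre, and small leucine-rich proteoglycans bind collagen and space its fibrils. Some of the latent TGF-beta binding proteins, though not all, hold TGF-beta in the matrix. In the lung these products come from several stromal cells: alveolar fibroblasts of the alveolar wall, adventitial fibroblasts around vessels and airways, myofibroblasts at the alveolar ducts, smooth muscle cells, pericytes and mesothelial cells.

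Promoter windows are shown for the members that were higher in KO in ductal myofibroblasts, the stromal gate with the most members past 2-fold. A RefSeq promoter entry (GRCm38.p6) was found for 30 of the 44 members, and *Col1a1* was among the 14 without one. The 3 genes shown are those with an entry that had the highest level in KO among the members at least 2-fold higher there. The RefSeq starts used for *Sparc* and *Col1a2* differ from their GENCODE gene starts. Their windows lie inside the GENCODE spans (chr11:55394500-55423183 and chr6:4504814-4541544), downstream of the start. Each window runs 5′ to 3′ from 120 bases before the RefSeq start to 30 bases after it, and capitals mark matches to CCAAT or TATAAA on either strand:
Col3a1, chr1:45311418-45311567, plus strand: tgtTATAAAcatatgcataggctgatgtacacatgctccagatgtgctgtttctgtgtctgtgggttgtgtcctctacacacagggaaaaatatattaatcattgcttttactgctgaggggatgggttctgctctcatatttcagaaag
Sparc, chr11:55420051-55420200, minus strand: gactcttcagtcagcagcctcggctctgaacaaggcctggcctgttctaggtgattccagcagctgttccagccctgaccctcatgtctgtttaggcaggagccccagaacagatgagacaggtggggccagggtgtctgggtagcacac
Col1a2, chr6:4505498-4505647, plus strand: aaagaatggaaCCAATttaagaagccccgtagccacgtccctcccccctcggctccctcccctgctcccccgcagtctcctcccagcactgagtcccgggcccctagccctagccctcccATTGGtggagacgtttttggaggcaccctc
The letters CCAAT occurred on 1 strand or the other in 9 of the 30 member windows of 300 bases (30%), against 37.4% of all 32851 windows. TATAAA occurred in 4 of them (13.3%, against 13.6%). TTGCNNAA, a core to which C/EBP factors can bind, occurred in 3 of them (10%, against 10.8%), *Col13a1*, *Efemp1* and *Fmod*. The member windows thus held none of these letters more often than promoters at large.

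After the filter on genes and mitochondrial counts, 11487 FF and 13238 KO cells remained, with a median of 4835 and 2607 UMIs per cell, and 45 barcodes occurred in both libraries. *Cebpa* was at 152 UMIs per 1000000 (CPM) in the AT2 cells of FF and 113 CPM in those of KO, so it was lower in the library labelled KO but far from absent. The AT2 gate has surfactant genes among its markers, so cells that had lost these may be missed. Its median was 20781 UMIs per cell in FF and 1541 in KO. In the paper, immunostaining, qPCR and Western blot showed less Cebpa in KO lungs at an earlier time after tamoxifen. The paper also reports less Cebpa by immunostaining in the labelled AT2 lineage of separate lineage-tracing mice, examined about as late as the mice here. Cells were gated by raw counts of marker genes, none of them a member. The gates held 619 FF and 328 KO alveolar fibroblasts, 526 and 463 adventitial fibroblasts, 225 and 138 ductal myofibroblasts, 121 and 126 smooth muscle cells, 282 and 113 pericytes, and 13 and 17 mesothelial cells. The stromal cells of KO were shallower, with median UMI counts from 2296 to 2729 in the first 5 gates against 4524 to 8864 in FF. Among the 10 genes that marked each of these 5 gates most strongly, between 4 and 7 were its own markers. The gates were drawn by these markers, so this count cannot check their identity. In B, T and natural killer cells, which should lack these genes, the 44 members summed to 344 CPM in FF (78 cells) and 1040.0 CPM in KO (842 cells), a level that free RNA in the droplets can give. In KO it rested in part on 1 cell: the 102 natural killer cells were at 6742 CPM, with 92.0% of their member UMIs in 1 cell, and the B and T cells alone were at 340.3 CPM in FF and 521 CPM in KO. Fewer molecules per cell and a larger pool of other RNA cannot be told apart in CPM.

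Among the 5 stromal gates with enough cells, adventitial fibroblasts led in the most members. In FF, 23 of the 44 members had their highest level in that gate, 10 in alveolar fibroblasts, 5 each in ductal myofibroblasts and pericytes, and 1, *Eln*, in smooth muscle (955 CPM, followed by 652 CPM in alveolar fibroblasts). The intervals of the first and the next gate were apart for 36 of the 44 members. Neither the highest gate nor these intervals were counted over all genes. In KO, 15 members were highest in ductal myofibroblasts, 18 in adventitial fibroblasts, 8 in alveolar fibroblasts, 3 in pericytes and none in smooth muscle, and 31 of the 44 kept the same gate. Some members were higher outside these gates, among them *Efemp1* in mesothelial cells and *Sparc* and *Fbln5* in alveolar type 1 cells of FF, described further on. As 1 end of each RNA is counted, CPM was not divided by gene length.

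**Figure D1:**
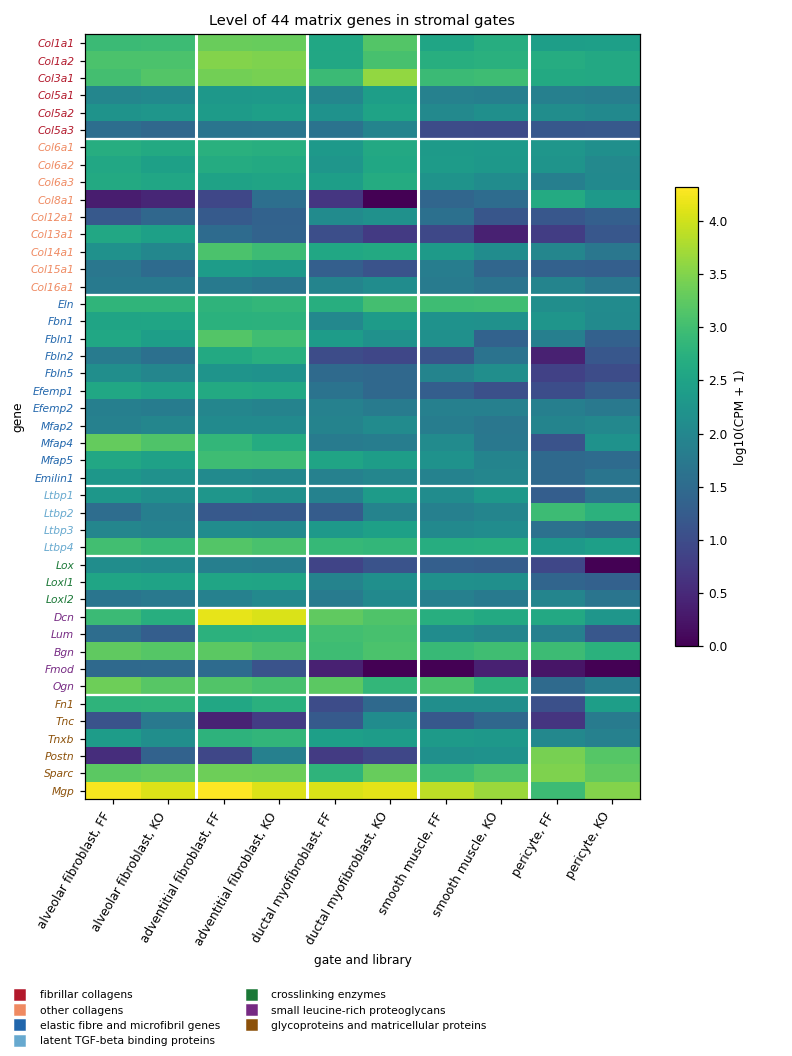
Level of each of the 44 genes (rows, coloured by class) in 5 stromal gates of the FF and KO libraries (columns), as log10(CPM + 1) of the UMIs summed over the cells of a gate. *Col13a1* stands out in alveolar fibroblasts, *Dcn* in adventitial fibroblasts, and *Postn*, *Ltbp2* and *Col8a1* in pericytes, in both libraries, and the rows of the fibrillar collagens brighten from FF to KO in the ductal myofibroblast columns.

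All 5 stromal gates but smooth muscle had members with their highest level there in both libraries. *Col13a1*, a transmembrane collagen, was at 383 CPM in FF and 286 CPM in KO alveolar fibroblasts and at no more than 31.7 CPM in any other of the 5 stromal gates. *Mfap4*, a microfibril-associated glycoprotein, was also highest there (2001 and 1359 CPM). Decorin, *Dcn*, which binds collagen fibrils, reached 14460 CPM in FF and 11888 CPM in KO adventitial fibroblasts, and the next gate in order was ductal myofibroblasts with 1813 and 1323 CPM. Pericytes led in *Postn*, which codes for the matricellular protein periostin (2734 and 1522 CPM), in *Ltbp2* (912 and 599 CPM) and in the short-chain collagen *Col8a1* (426 and 205 CPM). Ductal myofibroblasts led in the fibril-associated collagen *Col12a1* (121 and 152 CPM) and in the proteoglycan lumican, *Lum* (1013 and 1124 CPM). Of the crosslinking enzymes, *Lox* was highest in alveolar fibroblasts (128 and 114 CPM), and *Loxl1* was at 347 CPM there and 345 CPM in adventitial fibroblasts of FF, which do not differ beyond their counting intervals.

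Ductal myofibroblasts, the cells of the alveolar duct wall, had higher levels of all 6 fibrillar collagen genes in KO. Of the 38 members with at least 20 UMIs over both libraries, 14 were at least 2-fold higher in KO, where 4.1% of all genes with as many UMIs were, and 1 was at least 2-fold lower, where 3.88% of all genes were. The median log2 ratio of KO over FF was 0.50 for the 38 members and 1.54 for the 6 fibrillar collagens, against 0.05 for all 9212 genes. With every cell thinned to 1000 UMIs, 8 members were at least 2-fold higher and 2 were 2-fold lower. The shares of all genes above are those before thinning.

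*Col3a1* (ENSMUSG00000026043, GRCm38 chr1:45311538-45349706), which codes for the type III chain of pliable fibres, was at 875 CPM in FF (95% interval 825 to 926) and at 4132 CPM in KO (3981 to 4286), a log2 ratio of 2.24 (2.14 to 2.34). It thus passed the adventitial fibroblasts, which had the highest *Col3a1* level in FF (2472 CPM) and the next highest in KO (2701 CPM). *Col1a1* (ENSMUSG00000001506, chr11:94936224-94953042), a chain of type I collagen, was at 366 CPM in FF (334 to 400.0) and 1440.0 CPM in KO (1352 to 1532), with a log2 ratio of 1.98. Its partner chain *Col1a2* was at 380 and 1159 CPM, a log2 ratio of 1.61. The type V chains, which seed fibril assembly, differed less: the log2 ratio was 1.46 for *Col5a1* (94.3 and 260 CPM), 1.02 for *Col5a2* (156 and 316 CPM) and 1.04 for *Col5a3* (42.3 and 87.0 CPM), the last on 56 and 60 UMIs. The intervals of FF and KO did not overlap for any of the 6 genes, and the share of all genes of which this held was not counted.

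The collagen difference was spread over many cells. After every cell was thinned to 1000 UMIs, which left out 2 FF and 12 KO cells, 51.6% of FF cells (115 of 223, exact 95% interval 44.8 to 58.3%) and 82.5% of KO cells (104 of 126, 74.8 to 88.7%) had a *Col3a1* UMI. For *Col1a1* the shares were 24.7% (19.2 to 30.9%) and 61.9% (52.8 to 70.4%). Before thinning they were 89.8% and 91.3% for *Col3a1*, and 73.3% and 82.6% for *Col1a1*, at median depths of 5686 and 2729 UMIs. In lymphoid cells the thinned shares were 0% of 77 cells in FF (exact 95% interval up to 4.68%) and 4.39% of 820 cells in KO for *Col3a1*, at median depths of 6823 and 5990 UMIs. The median cell had 7.12 *Col3a1* UMIs per 10000 in FF and 23.6 in KO. Some cells nevertheless weighed heavily: 10 of the 138 KO cells held 47.9% of the *Col3a1* UMIs, and the 10 deepest KO cells held 22.4% of all UMIs of the gate. Without the 10 deepest cells of each library the log2 ratio of *Col3a1* was 2.07, and among cells with at least 3000 UMIs it was 2.34.

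**Figure D2:**
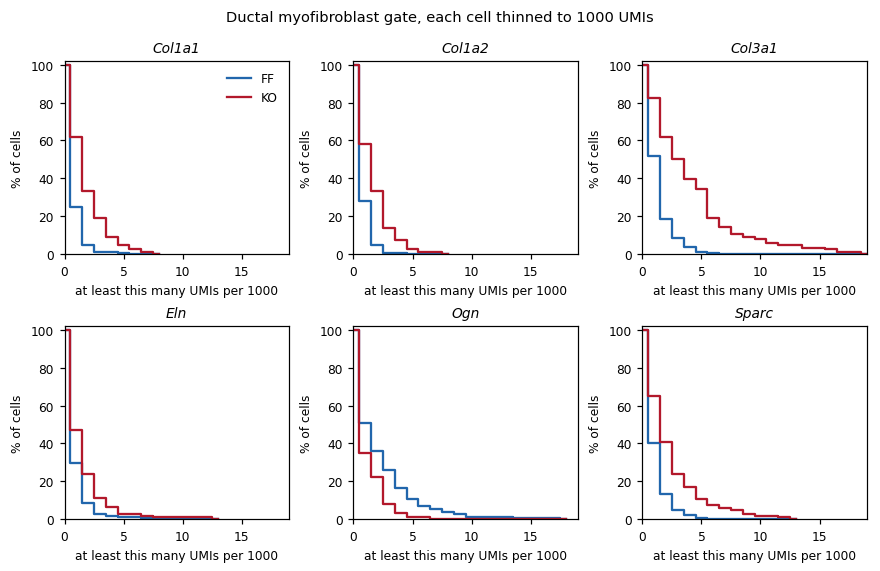
Share of ductal myofibroblast cells (vertical axis, % of 223 FF and 126 KO cells) with at least the number of UMIs on the horizontal axis, after each cell was thinned to 1000 UMIs. For *Col1a1*, *Col1a2*, *Col3a1*, *Eln* and *Sparc* the KO line lies above the FF line at 1 UMI and beyond, and for *Ogn* it lies below.

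Markers of other cells were looked at in the same gate. Its own 7 markers summed to 11493 CPM in FF and 10559 CPM in KO. The 10 adventitial markers summed to 885 and 1014 CPM (8 and 9 of them with a UMI, *Scara5* at 0 in both), and the 10 alveolar fibroblast markers to 201 and 160 CPM (9 and 8 with a UMI, *Wnt2* at 0 in both). *Dcn*, whose level was highest in adventitial fibroblasts, was lower in KO. Endothelial class markers summed to 727 and 973 CPM. Immune class markers summed to 3.77 CPM in FF (4 of 5 with a UMI, *Coro1a* at 0) and 144 CPM in KO (5 of 5), and the neutrophil genes *S100a8* and *S100a9* together to 1.51 and 258 CPM. Their part in the result was not tested.

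The other classes differed less evenly in ductal myofibroblasts. Among the other collagens, the 3 chains of the microfibrillar type VI collagen had log2 ratios of 0.91 (*Col6a1*), 1.03 (*Col6a2*, 183 and 374 CPM) and 0.81 (*Col6a3*), while *Col14a1* (374 and 409 CPM), a fibril-associated collagen, and *Col12a1* had ratios of 0.13 and 0.33. Elastin, *Eln* (ENSMUSG00000029675, chr5:134702593-134747323), was at 510.1 CPM in FF (472 to 550.0) and 1041 CPM in KO (966 to 1120.3), a log2 ratio of 1.03. That level in KO was the highest of the 5 gates, and its interval overlapped that of smooth muscle (983 CPM, 910.0 to 1061). Without the KO and the FF cell richest in *Eln* the ratio was 0.84, and 1 KO cell held 17.8% of the *Eln* UMIs. Fibrillin 1, *Fbn1*, which builds the microfibrils, was at 100.4 and 236 CPM (1.24). *Fbln1* and *Mfap5*, which code for fibulin 1 and a microfibril glycoprotein, had ratios of -0.64 and -0.43, so the elastic fibre class had a median ratio of -0.03 over its 10 measured genes.

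Among the latent TGF-beta binding proteins, *Ltbp1* was at 79.2 CPM in FF and 231 CPM in KO (1.54), and *Ltbp2* at 17.4 and 84.1 CPM (2.28), on 23 and 58 UMIs, with 87.9% of the KO UMIs in 10 cells. *Ltbp4* had the most UMIs of the class (766 and 718 CPM) and a ratio of -0.09. The crosslinking enzymes *Loxl1* (83.8 and 139 CPM) and *Loxl2* (61.9 and 109 CPM) had ratios of 0.73 and 0.81, below 2-fold, and *Lox* had too few UMIs (9 and 8) to be measured. Among the matricellular proteins, *Sparc* (ENSMUSG00000018593, chr11:55394500-55423183), a collagen-binding protein, was at 638 CPM in FF (595 to 682) and 2051 CPM in KO (1945 to 2160.3), a log2 ratio of 1.69, and its thinned share of cells was 40.4% (33.9 to 47.1%) and 65.1% (56.1 to 73.4%), against 5.19% and 9.02% of lymphoid cells. Tenascin C, *Tnc*, a glycoprotein of remodelling matrix, was at 15.8 and 125 CPM (2.98), and *Fn1*, fibronectin, at 9.05 and 29.0 CPM on 12 and 20 UMIs. *Mgp*, matrix Gla protein, an inhibitor of calcification, had the most UMIs of all members and a ratio of 0.20, which was -0.25 after thinning. *Ogn* (ENSMUSG00000021390, chr13:49608046-49624501), the proteoglycan osteoglycin, went the other way: it was at 1711 CPM in FF (1641 to 1782) and 724 CPM in KO (662 to 790.0), a log2 ratio of -1.24, and 50.7% and 34.9% of thinned cells had a UMI. *Dcn* (1813 and 1323 CPM) had a ratio of -0.46, *Lum* 0.15 and *Bgn*, biglycan, 0.40. The 6 members not measured in this gate were *Col8a1*, *Col13a1*, *Fbln2*, *Lox*, *Fmod* and *Postn*.

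**Figure D3:**
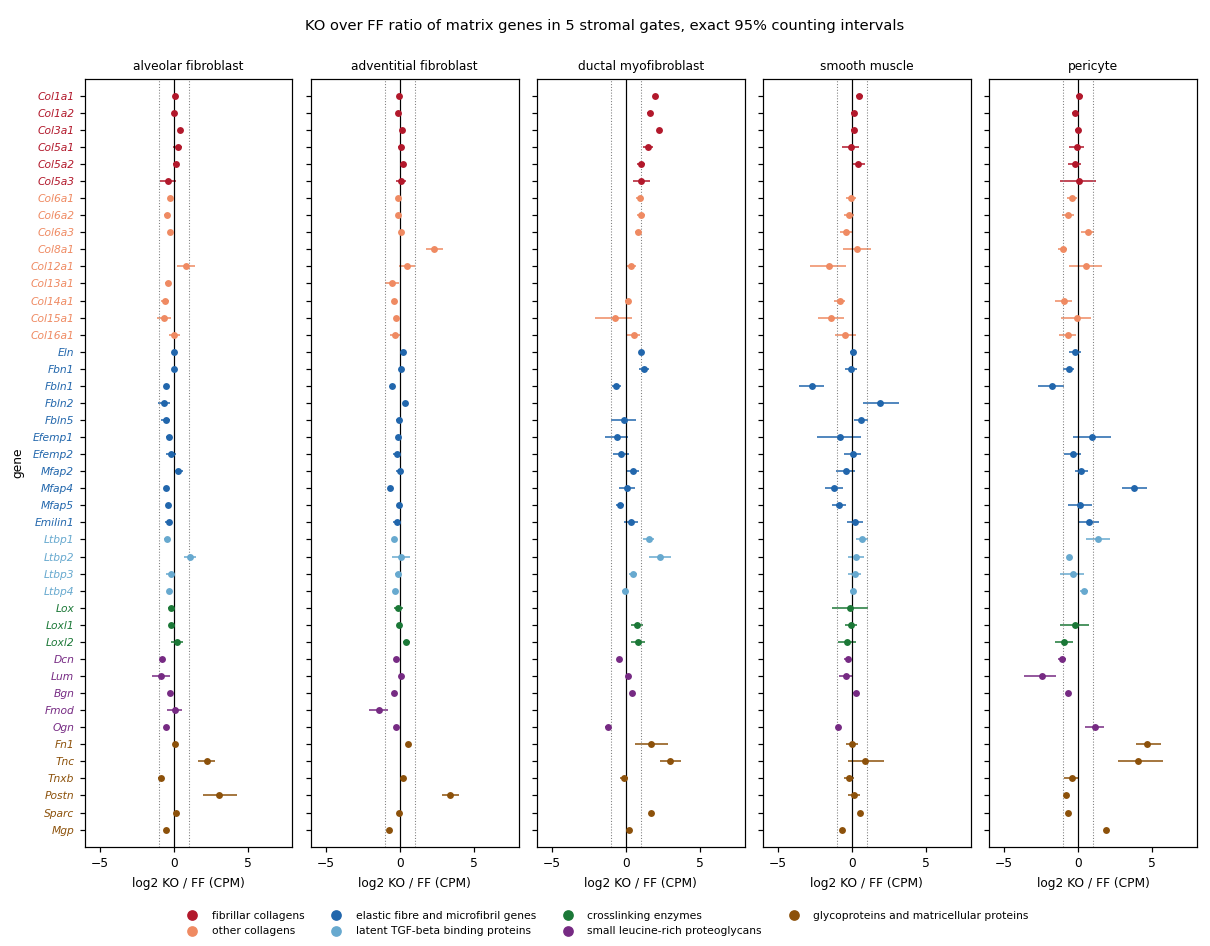
Log2 ratio of KO over FF (horizontal axis, CPM) for the members with at least 20 UMIs in each of 5 stromal gates, with exact 95% counting intervals as bars and dotted lines at 2-fold. The red points of the fibrillar collagens lie at or beyond the 2-fold line in ductal myofibroblasts and inside the 2-fold lines in the other 4 gates.

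Alveolar fibroblasts had similar levels of *Col1a1* and *Col1a2* in both libraries. In KO, *Col3a1* was somewhat higher and several other classes had lower median levels. *Col1a1* was at 879 and 923 CPM (log2 ratio 0.07), *Col1a2* at 1226 and 1239 CPM (0.02), and *Col3a1* at 1074 and 1451 CPM (0.43, interval 0.36 to 0.51). Among 43 measured members 3 were at least 2-fold higher, where 5.97% of all genes were, and none was 2-fold lower, where 3.18% of all genes were. The median ratio was -0.23 for the members and 0.00 for all 11300 genes. The small leucine-rich proteoglycans (median -0.54), the elastic fibre genes (-0.34) and the other collagens (-0.33) had the lowest class medians.

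Several members with many UMIs were lower in the alveolar fibroblasts of KO. *Mgp* (ENSMUSG00000030218, chr6:136872435-136875823) was at 17745 CPM in FF and 12070.3 CPM in KO (-0.56), *Ogn* at 2272 and 1559 CPM (-0.54), *Mfap4* (chr11:61485431-61488900) at 2001 and 1359 CPM (-0.56), and *Dcn* at 884 and 508 CPM (-0.80). *Sparc* (1696 and 1871 CPM), *Bgn* (1795 and 1491 CPM), *Fn1* (636 and 674 CPM), *Eln* (652 and 656 CPM) and *Fbn1* (331 and 337 CPM) lay closer together, with ratios from -0.27 to 0.14. With cells thinned to 1000 UMIs, however, *Eln* was higher in KO. It then had a UMI in 30.8% of FF cells (27.1 to 34.7%) and 40.8% of KO cells (35.2 to 46.6%), against 58.8% and 60.1% before thinning. The crosslinking enzymes *Lox* and *Loxl1* both had ratios of -0.16. The 10 markers that gated these cells were also lower in KO, with 12072 CPM in FF and 8745 CPM in KO. Endothelial class markers summed to 652 and 1988 CPM and immune class markers to 8.04 and 285 CPM (5 of 5 with a UMI in both for each class). *S100a8* and *S100a9* together were at 2.38 and 257 CPM. Their part in the result was not tested.

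The 3 members beyond 2-fold in alveolar fibroblasts were rare transcripts in few cells. *Tnc* was at 11.9 and 55.0 CPM (log2 ratio 2.21, interval 1.65 to 2.79) with UMIs in 25 of 619 FF and 28 of 328 KO cells. *Ltbp2* was at 33.4 and 70.5 CPM (1.08), with 10 cells holding 75.2% of the KO UMIs, and its ratio was 0.42 after thinning. *Postn* was at 2.68 and 22.0 CPM on 9 and 34 UMIs.

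Adventitial fibroblasts had nearly equal fibrillar collagen levels in both libraries. *Col1a1* was at 2109 and 2042 CPM (-0.05), *Col1a2* at 3287 and 2990 CPM (-0.14) and *Col3a1* at 2472 and 2701 CPM (0.13), and the class median was 0.07. Of 43 measured members 2 were at least 2-fold higher, where 3.73% of all genes were, and 1 was 2-fold lower, where 2% of all genes were. The median ratio was -0.09, against 0.04 for all 11876 genes. *Mgp* was at 20597 CPM in FF and 12428 CPM in KO (-0.73), *Dcn* at 14460 and 11888 CPM (-0.28), *Fbln1* at 1438 and 978 CPM (-0.56), *Mfap4* at 708 and 446 CPM (-0.67) and *Col14a1* at 1239 and 921 CPM (-0.43). With cells thinned to 1000 UMIs the *Mgp* difference was larger, at a mean of 20.8 UMIs per cell in FF and 9.96 in KO. *Fn1* was at 388 and 556 CPM (0.52), *Fbln2*, which links elastic fibres to other matrix, at 421 and 527 CPM (0.33), and *Loxl2* at 77.9 and 105 CPM (0.43). *Sparc* (2321 and 2221 CPM) and *Eln* (629 and 718 CPM) had ratios of -0.06 and 0.19.

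Over all cells, the members beyond 2-fold in this gate were low. *Postn* (ENSMUSG00000027750, chr3:54361109-54391037) was at 7.18 CPM in FF and 75.6 CPM in KO, a log2 ratio of 3.40 (2.86 to 3.97), with UMIs in 15 of 526 FF and 49 of 463 KO cells. After thinning, 1.17% (0.430 to 2.53%) of FF and 4.45% (2.70 to 6.86%) of KO cells had a UMI, against 0.366% of lymphoid cells in KO. *Col8a1* (chr16:57624258-57754737) was at 7.39 and 36.7 CPM (2.31), in 17 and 38 cells. *Fmod*, fibromodulin, a proteoglycan that binds collagen, was at 31.3 and 11.8 CPM (-1.41), in 51 and 14 cells. Pericytes were the stromal cells richest in *Postn* and *Col8a1*, and the 9 pericyte markers summed to 260 CPM in FF and 218 CPM in KO adventitial fibroblasts, all 9 with a UMI in both. The gate's own 10 markers summed to 9972 and 8054 CPM, endothelial class markers to 590.2 and 1179 CPM, immune class markers to 7.39 and 202 CPM (5 of 5 with a UMI in both for each class), and *S100a8* and *S100a9* to 1.48 and 320 CPM. Their part in the result was not tested.

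Over all cells, smooth muscle had similar levels of *Col3a1*, *Col1a2* and *Eln* in both libraries. In KO, *Col1a1* was higher and several other collagens were lower. *Col3a1* was at 866 and 924 CPM (0.09, and -0.43 after thinning), *Col1a2* at 500.1 and 554 CPM (0.15), *Col1a1* at 346 and 488 CPM (0.49) and *Eln* at 955 and 983 CPM (0.04). Of 41 measured members 1 was at least 2-fold higher, where 3.24% of all genes were, and 4 were 2-fold lower, where 4.71% of all genes were. The median ratio was -0.06, against -0.02 for all 8178 genes, and it was -0.44 over the 8 measured other collagens, among them *Col14a1* at 219.7 and 122 CPM (-0.84). *Fbln1* was at 143 and 22.1 CPM (-2.70, interval -3.58 to -1.91), *Mfap4* at 120.2 and 51.6 CPM (-1.22, and -0.21 after thinning) and *Col15a1*, a collagen of the basement membrane zone, at 65.9 and 25.1 CPM (-1.40). A single FF cell held 64.7% of the *Col15a1* UMIs of FF, and without the richest cell of each library the ratio was -0.28. *Col12a1* (-1.55) and *Fbln2* (1.88) rested on 30 and 9 UMIs and on 9 and 29 UMIs in FF and KO. *Mgp* (7632 and 4686 CPM, -0.70) and *Ogn* (1197 and 621 CPM, -0.95) were lower as in fibroblasts, and *Sparc* (876 and 1265 CPM) had a ratio of 0.53. The gate's own 8 markers summed to 20375 CPM in FF and 26606 CPM in KO, and the 7 ductal myofibroblast markers to 4288 and 3087 CPM. Endothelial class markers summed to 876 and 1353 CPM (5 of 5 with a UMI in both), immune class markers to 3.88 CPM in FF (3 of 5, *Ptprc* and *Tyrobp* at 0) and 140.0 CPM in KO (5 of 5), and *S100a8* and *S100a9* to 2.58 and 283 CPM. Their part in the result was not tested.

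Pericytes, the contractile cells on capillaries, had lower levels in KO of *Postn*, *Ltbp2* and *Col8a1*. These were the members highest there among the 5 stromal gates in both libraries. *Postn* was at 2734 CPM in FF and 1522 CPM in KO (log2 ratio -0.84, interval -0.95 to -0.74), *Ltbp2* at 912 and 599 CPM (-0.61) and *Col8a1* at 426 and 205 CPM (-1.06). *Sparc* (3008 and 1835 CPM, -0.71), highest there in FF only, and *Bgn* (906 and 568 CPM, -0.67) were lower too. *Bgn* was higher in alveolar fibroblasts in both libraries (1795 and 1491 CPM). The gate's own 9 markers were lower as well, with 18524 CPM in FF and 9535 CPM in KO, while endothelial class markers were at 1245 and 3991 CPM (5 of 5 with a UMI in both) and *S100a8* and *S100a9* at 1.45 and 1162 CPM. Their part in the result was not tested. The fibrillar collagens had a median ratio of -0.06. *Loxl2*, the crosslinking enzyme highest in these cells, was at 90.2 and 46.7 CPM (-0.95).

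Of 39 measured members in pericytes 6 were at least 2-fold higher in KO, where 8.47% of all genes were, and 4 were 2-fold lower, where 6.22% of all genes were. The higher ones rested on few cells, and they numbered 3 without the 10 deepest cells of each library and 1 after thinning. The shares of all genes above are over all cells and before thinning. *Fn1* (chr1:71585520-71653200) was at 10.2 and 257 CPM (4.66), and 1 KO cell held 74.3% of its UMIs. *Mgp* was at 903 and 3267 CPM (1.85), with 89.4% of the KO UMIs in 1 cell, and without the richest cell of each library its ratio was -0.69. *Mfap4* was at 11.6 and 157 CPM (3.75), with 61.5% of the KO UMIs in 1 cell, and all 40 *Tnc* UMIs of KO came from 1 cell. *Ltbp1* (1.31) and *Ogn* (1.12) were found in 16 and 18 KO cells. Among the lower ones, *Col8a1* had UMIs in 34.3% of thinned FF cells (28.7 to 40.3%) and 11.8% of thinned KO cells (6.23 to 19.6%). *Dcn* (-1.10), *Lum* (-2.47) and *Fbln1* (-1.77) were carried in FF by 10 cells that held 94.5%, 100% and 82.8% of their UMIs. The 10 deepest pericytes of KO held 41.9% of the gate's UMIs.

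**Figure D4:**
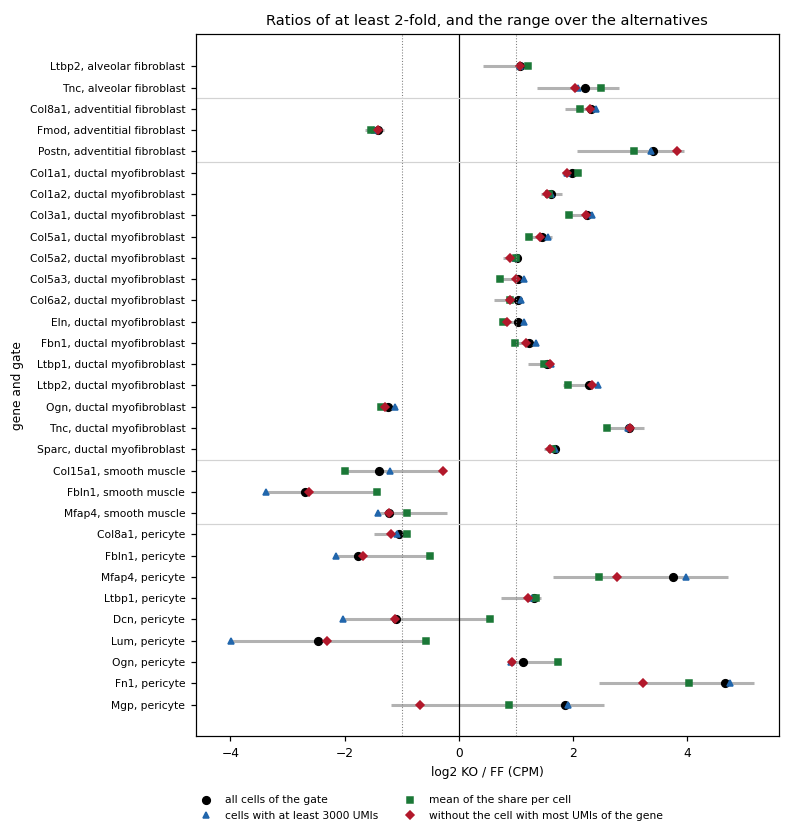
Log2 ratios of KO over FF (horizontal axis, CPM) for the 31 gene and gate combinations with at least 50 UMIs and at least a 2-fold difference. Grey bars span 11 alternative ways of counting and symbols mark 3 of these beside the value over all cells. The ductal myofibroblast values stay on 1 side of 0 with lowest values of 0.62 for *Col6a2*, 0.71 for *Col5a3* and 0.75 for *Eln* among those above 0, while *Dcn* and *Mgp* in pericytes cross 0.

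Mesothelial cells, which cover the lung surface, were too few (13 and 17) for ratios. Members with many UMIs were *Dcn* (4856 CPM in FF and 5055 CPM in KO), *Mgp* (5547 and 1596 CPM) and *Efemp1*, a fibulin family gene (2105 and 1352 CPM), the last at a higher level than in any of the other stromal gates.

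Genes that help make collagen are given beside the collagens. Of the 26 genes for collagen synthesis and processing, 21 were measured in ductal myofibroblasts, with a median ratio of 0.26. Of these, 2 were at least 2-fold higher, where 4.1% of all genes were, and none was 2-fold lower, where 3.88% were. The 2 higher ones were *Adamts2*, which removes the amino-terminal propeptide (43.8 and 103 CPM, 1.23), and *P4ha2*, a prolyl hydroxylase subunit, on 12 and 16 UMIs. *Serpinh1*, the collagen chaperone, was at 346 and 547 CPM (0.66). In alveolar and adventitial fibroblasts, smooth muscle and pericytes the medians were -0.30, -0.08, -0.29 and -0.10. Pericytes had 3 of 18 measured genes at least 2-fold higher (8.47% of all genes) and 1 lower (6.22%). Adventitial fibroblasts had 1 of 24 higher (3.73%) and none lower (2%). None of 21 was past 2-fold in alveolar fibroblasts (5.97% higher, 3.18% lower), and none of 18 in smooth muscle (3.24% and 4.71%). In pericytes *Pcolce2*, a procollagen processing enhancer, was at 66.9 and 146 CPM (1.13) and *Loxl3*, a lysyl oxidase, at 52.4 and 16.6 CPM (-1.66).

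Of the 18 genes of activated fibroblasts, 6 of 15 measured were at least 2-fold higher in alveolar fibroblasts of KO (5.97% of all genes), 3 of 14 in adventitial fibroblasts (3.73%), 4 of 11 in ductal myofibroblasts (4.1%), none of 10 in smooth muscle (3.24%) and 3 of 11 in pericytes (8.47%). In ductal myofibroblasts, smooth muscle and pericytes 1 gene each was at least 2-fold lower (3.88%, 4.71% and 6.22% of all genes), and none was in alveolar and adventitial fibroblasts (3.18% and 2%). In ductal myofibroblasts *Sfrp1*, a secreted WNT modulator, was at 161 and 473 CPM (1.56), and *Tgfb1* at 22.6 and 46.4 CPM (1.04). A single KO cell held 25.8% of the *Sfrp1* UMIs, and without the richest cell of each library the *Sfrp1* ratio was 1.22. In alveolar fibroblasts *Runx1* was at 31.0 and 62.1 CPM. *Spp1* (241 CPM in KO) and *Saa3* (301 CPM in KO) were higher there too, with 78.3% and 85.6% of the KO UMIs in 1 cell. In adventitial fibroblasts *Spp1* was at 3.59 and 21.8 CPM, in 17 and 34 cells, and *Ccl2* at 16.3 and 69.9 CPM, with 71.3% of the KO UMIs in 1 cell. In ductal myofibroblasts all 98 *Saa3* UMIs of KO came from 1 cell, and in smooth muscle all 104 *Ccl2* UMIs of FF did. In pericytes *Cxcl12* (132 and 400.5 CPM, 1.60) and *Tgfb1* (40.0 and 128 CPM, 1.68) were higher in KO, where 10 cells held 67.7% and 61.2% of their UMIs. *Cthrc1*, a gene of matrix-producing fibroblasts in injured lung, had 2 UMIs in FF and 5 in KO ductal myofibroblasts.

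Outside the stroma, members were read against lymphoid cells (B, T and natural killer cells) of the same library, which should lack them. In AT2 cells 28 of 39 measured members were at least 2-fold higher in KO, where 11.5% of all genes were, and none was 2-fold lower, where 1.05% were. The AT2 cells of KO were much shallower, with a median of 1541 UMIs against 20781 in FF. In aerocytes, the gas-exchange capillary cells, 15 of 41 were higher, where 6.43% of all genes were, and none lower, where 1.19% were. Their median was 3056 UMIs in KO and 6460 in FF. In both gates the fibrillar collagens had the highest class median: 2.46 in AT2 cells (5 of 5 measured at least 2-fold higher) and 1.28 in aerocytes (4 of 6). This class summed to 49.5 CPM in FF and 210 CPM in KO AT2 cells, and to 37.7 and 101 CPM in aerocytes. In B cells it summed to 31.9 and 66.9 CPM, and in T cells to 17.4 and 60.7 CPM. The members summed to 340.3 CPM in B and T cells of FF and 521 CPM in those of KO. The part of free RNA and of depth in these counts was not tested. Members whose CPM was at least 5 times the lymphoid level in both libraries were few: 2 in AT2 cells and 4 in aerocytes, none of them 2-fold different. As this filter asks for a high level in both libraries, it can leave out members that differ strongly between them. The share of all genes that pass it was not counted, and lymphoid sums below 3 UMIs were set to 3. Against B and T cells alone the same members passed in these gates.

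Over all measured members, counts past 2-fold in the other gates are given beside the share of all genes. General capillary cells had 2 of 40 higher (4.92% of all genes) and 1 lower (1.94%), arterial cells 3 of 34 higher (2.33%) and 2 lower (3.61%), and venous cells 2 of 32 higher (2.02%) and 2 lower (1.94%). Lymphatic cells had 0 of 20 higher (3.79%) and 3 lower (4.17%), AT1 cells 2 of 13 higher (12.2%) and 5 lower (11.5%), and ciliated cells 5 of 27 higher (3.74%) and 1 lower (3.05%). Interstitial macrophages had 4 of 13 higher (10.3%) and 3 lower (3.85%), monocytes 1 of 17 higher (4.11%) and 0 lower (5.35%), and platelets and megakaryocytes 2 of 25 higher (4.77%) and 4 lower (3.83%). B cells had 3 of 16 higher (5.96%) and 1 lower (2.3%), T cells 2 of 15 higher (5.01%) and 2 lower (4.62%), and erythroid cells 10 of 13 higher (67.2%) and 0 lower (0.404%).

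Endothelial cells had a small matrix set of their own. *Ltbp4*, which supports elastic fibre assembly, was at 1224 and 956 CPM in lymphatic endothelial cells, 570 and 382 CPM in arterial cells and 454 and 354 CPM in venous cells. *Mfap2*, a microfibril protein, was at 295 and 228 CPM in aerocytes and 212 and 146 CPM in general capillary cells. *Fbln5*, which tethers elastin to cells, was at 325 and 302 CPM in lymphatic cells, 191 and 144 CPM in venous cells and 103 and 151 CPM in arterial cells, and *Eln* at 263 and 219 CPM in venous cells. *Bgn* was above lymphoid cells in venous cells (507 and 384 CPM), *Fbln2* in arterial cells (212 and 144 CPM), and *Col12a1* (109 and 80.0 CPM) and *Tnxb* (136 and 120 CPM) in aerocytes. *Sparc* was higher in KO in each endothelial gate. It was at 442 and 819 CPM in general capillary cells (log2 ratio 0.89, interval 0.84 to 0.93), 371 and 697 CPM in arterial cells (0.91), 245 and 388 CPM in venous cells (0.66) and 463 and 674 CPM in lymphatic cells (0.54). In aerocytes *Sparc* was at 106 and 212 CPM, less than 5-fold above lymphoid cells (31.3 and 96.8 CPM). In venous cells *Sparc* fell short of 5-fold in KO only, and in neither library against B and T cells alone (31.3 and 69.0 CPM). Against these, arterial cells gained *Emilin1*, *Bgn* and *Mgp*, and lymphatic cells *Eln*. None of the members at least 5-fold above lymphoid cells in both libraries was 2-fold different in the 5 endothelial gates, a count that the filter on both libraries can itself lower.

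**Figure D5:**
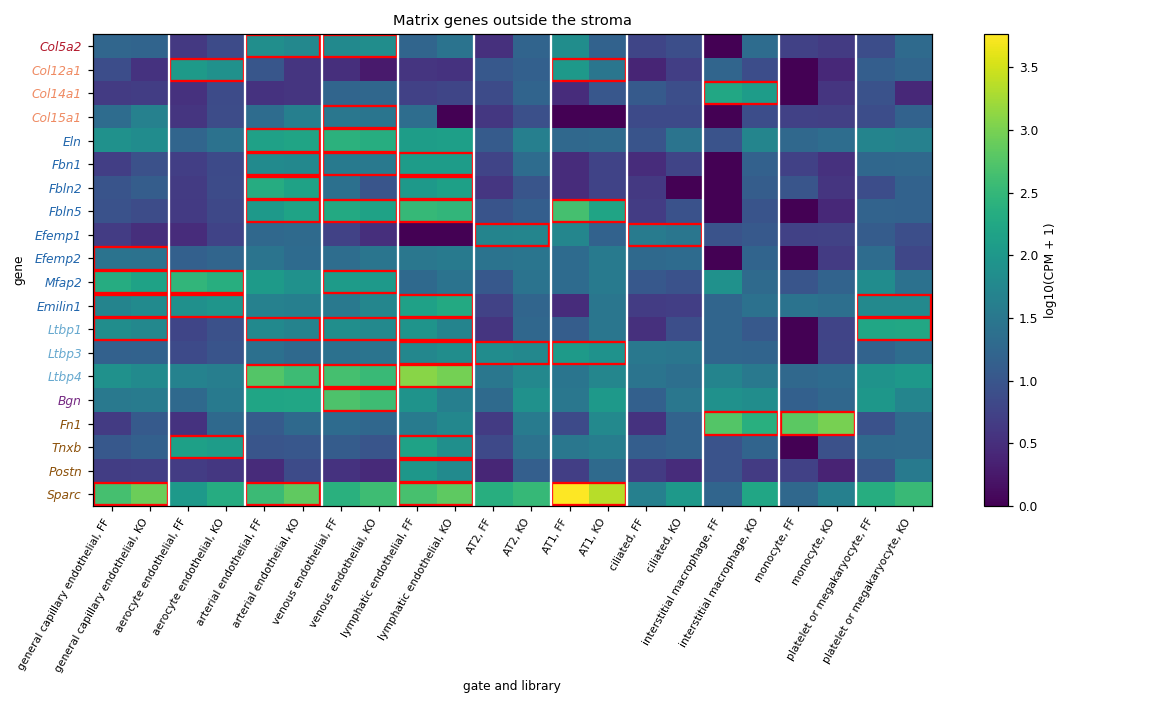
Level, as log10(CPM + 1), of the 20 members that stood at least 5-fold above lymphoid cells of both libraries in some gate outside the stroma, with red boxes around those gates. *Sparc* is brightest in AT1 cells, *Ltbp4* in lymphatic cells and *Fn1* in monocytes.

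Alveolar type 1 (AT1) cells, the flat cells of the gas-exchange surface, were rich in *Sparc*, at 5758 CPM in FF (5550 to 5971) and 2272 CPM in KO (2073 to 2486), a log2 ratio of -1.34. *Fbln5* (443 and 158 CPM, -1.49) and *Col12a1* (103 and 28.6 CPM, -1.85) were lower in KO too, where 11.5% of all genes were at least 2-fold lower. The gate held 122 FF and 49 KO cells, and 10 KO cells held 68.3% of the *Sparc* UMIs and 78.8% of the 33 *Fbln5* UMIs. *Col12a1* rested on 6 UMIs in 4 KO cells, and its ratio had an interval from -3.36 to -0.63. AT2 cells had *Efemp1* (48.5 and 49.8 CPM) and *Ltbp3* (67.3 and 55.4 CPM), and ciliated cells *Efemp1* (35.7 and 28.6 CPM).

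Among blood cells, monocytes had *Fn1* at 645 CPM in FF (546 to 758) and 985 CPM in KO (949 to 1022), but FF held only 27 monocytes, 13 of them with a UMI, against 207 of 349 in KO. In interstitial macrophages 1 FF cell held 98.6% of the *Fn1* UMIs, so its level there (561 and 238 CPM) is that of a cell rather than of a type, and *Col14a1* was at 176 and 118 CPM. Platelets and megakaryocytes had *Ltbp1* (167 and 179 CPM) and *Emilin1* (58.0 and 57.8 CPM) at like levels.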

How the data were processed

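The deposited values are raw UMI counts per gene and cell, which the authors made with Cell Ranger (6.1.1 in the submitters' processing notes, 5.0.0 in the file header) on the mouse genome mm10, with no normalization. The published filter (at least 200 genes, at most 20% mitochondrial counts) was applied here. The labels speak of sorting live cells and the methods of whole-lung suspensions, so the loaded cells are not settled.

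A marker counted as present in a cell with at least 1 UMI and at least 2 times the library's mean share. A cell took the type with most markers present if these were at least 3, without a tie and with fewer than 2 markers of another class. The form of this rule was settled with the data in view, and no doublet caller was run beyond the exclusion by class markers. UMIs were summed per gate and library and given as CPM with exact Poisson intervals. Ratios are log2 of KO over FF CPM, with sums floored at 3 UMIs, and exact Clopper-Pearson 95% intervals on the split of UMIs. A gene with at least 20 UMIs over both libraries counted as measured, and gates needed 20 cells in each library. Nothing was tested, as 1 library per genotype was made. The calculation of intervals was tested on simulated data. Named were the 5 highest members of each gate, the highest of each class, members and pathway genes with 50 UMIs and a 2-fold difference, and, outside the stroma, members with 50 UMIs and 5 times the lymphoid CPM; members named beyond this were picked to account for all, with their values seen. The members and lists were chosen with earlier results of these data known. A gene of the pathway lists that met the naming rule is not reported here. Positions are from GENCODE M21 (GRCm38), and promoter sequences from RefSeq. Python 3.11.15, numpy 2.4.6, pandas 2.3.3, scipy 1.17.1 and matplotlib 3.10.9 were used.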

Additional observations from a re-analysis of the deposited data

Results flagged for a closer look

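In 3 genes the difference between KO and FF went past 2-fold in opposite directions in different stromal gates, and the difference between gates was not tested. *Col8a1* had a log2 ratio of KO over FF of 2.31 in adventitial fibroblasts and -1.06 in pericytes. *Mfap4* had a ratio of 3.75 in pericytes, where 1 KO cell held 61.5% of its UMIs, and -1.22 in smooth muscle. *Ogn* had a ratio of 1.12 in pericytes, on 86 UMIs, and -1.24 in ductal myofibroblasts.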

How the results depend on the processing

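No paired analysis was possible because each genotype has 1 library, and no library could be left out. Of the values that answer a comparison, 253 stayed close to the reported value over the alternatives (within its counting interval, or within 1.5 times for a count) and 26 moved. Of the ratios of single genes 611 stayed close and 144 moved. Sign changes numbered 25, 21 of them in ratios below 2-fold (at most 0.63 in size) and 4 in ratios beyond it. With each cell thinned to 1000 UMIs, the members at least 2-fold higher and lower in KO numbered 1 and 1 in alveolar fibroblasts, 1 and 2 in adventitial fibroblasts, 8 and 2 in ductal myofibroblasts and 1 and 1 in pericytes, 1 was lower in smooth muscle, the median ratio was -0.36 in adventitial fibroblasts and -0.48 in venous cells, and 2 members were highest in smooth muscle. With cells of at least 3000 UMIs, or with free RNA subtracted, 1 member was lower in alveolar fibroblasts. With the mean of the share per cell, 2 members were lower in adventitial fibroblasts, 2 were lower in ductal myofibroblasts, 2 were higher in smooth muscle and 0 were lower in pericytes, the median was 0.0459 in pericytes and -0.013 in venous cells, and 2 members were highest in smooth muscle. With at least 50 UMIs, 0 were higher in smooth muscle, and with gates of at least 4 markers, 3 members were highest in ductal myofibroblasts and 2 in smooth muscle of FF. Without the 10 deepest cells, chosen after seeing the data, 2 were lower in ductal myofibroblasts and 3 were higher in pericytes. The shares of all genes given further up are for the main settings and not for these alternatives. *Dcn* in pericytes went to 0.55 with the mean of the share per cell and 0.25 after thinning, and *Mgp* in pericytes to -1.19 without the 10 deepest cells and -0.69 without the richest cell. Taking the lymphoid level from B and T cells (a choice made after seeing the data) left the medians of the members above it close to those reported in the 4 endothelial gates compared. The cause of these moves was not tested. Members with fewer than 20 UMIs in a gate could not be compared at this depth.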
